A study of Mus musculus with 4 samples.

Results

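The genes described here are 10 that code for proteins of neutrophil granules or mark the cells that fill them, of 54532 genes in the count table. They were chosen by symbol and fall into 2 classes. The 5 primary granule genes were Mpo, Elane, Prtn3, Ctsg and Ms4a3, and the 5 secondary granule genes were Ngp, Ltf, Camp, Lcn2 and Cd177. All 10 were among the 16369 genes that reached 10 counts in 1 or more libraries, called the genes tested below.

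Neutrophils build their granules in order as they mature in the bone marrow. Primary (azurophilic) granules, with myeloperoxidase and the serine proteases, are filled at the promyelocyte stage, and the transcripts of their proteins are then shut off. Secondary (specific) granules, with lactoferrin and the cathelicidin, are filled later, at the myelocyte and metamyelocyte stages, under the transcription factor C/EBP epsilon. Receptors of secretory vesicles and of the mature surface come last, so a circulating neutrophil carries the granule proteins long after most of their mRNA is gone.

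RNA was sequenced from CD11b+Ly6g+ cells, called myeloid-derived suppressor cells (MDSCs) by the submitters, sorted from lungs of C57BL/6 mice aged 6 to 8 weeks. Every mouse was given 300 μL of melanoma-conditioned medium (MCM) into the peritoneum on 10 consecutive days to form a pre-metastatic niche (PMN), and 100000 B16F10 melanoma cells by the tail vein on day 7. The control mice (Ctrl) had no peptide, and the others had TP5, sFD17 or FR17 under the skin at 40 μM/kg a day, starting on day 3, with lungs taken on day 10. TP5 is the immunomodulatory pentapeptide thymopentin, FR17 is an assembling peptide that carries TP5 and is cut by MMP2, and sFD17 is its counterpart with a scrambled TP5 sequence, which also assembles after cutting. There was 1 library per group, pooled from 10 to 12 mice, and no healthy mice were among the samples. Thus no difference below has a replicate check, no p-value is given for one, each compares libraries rather than conditions, all intervals cover counting error only, and the 3 comparisons with control share the same control library.

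The libraries held 15543071 to 19638228 counts on genes. Levels are given as CPM, the counts of a gene per 1000000 counts of its library, after trimmed mean of M values (TMM) scaling, with factors from 0.849 in sFD17 to 1.17 in FR17, and log2 fold changes use the same scaling with a prior count of 2. The sorted markers were present in every library. Ly6g was at 73.1 CPM in Ctrl, 97.8 with TP5, 111 with sFD17 and 90.7 with FR17, Itgam (CD11b) at 302 to 433 CPM, and S100a9, among the most abundant neutrophil transcripts, at 9052 to 13024 CPM. Markers of other cells were also present, so the libraries were not of neutrophil RNA alone. The summed level of 13 macrophage markers was 9735 CPM in Ctrl, 7362 with TP5, 3580 with sFD17 and 12183 with FR17. In these bulk libraries, fewer cells of a type and less RNA per cell cannot be told apart.

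The upstream sequences of 2 primary and 2 secondary genes are shown because they hold the C/EBP or PU.1 motif letters counted below. They are RefSeq sequences of build GRCm38.p6, written 5′ to 3′ on the gene's strand, and each stops before the first annotated base of the gene. Capitals mark TTGCNNAA (C/EBP), GAGGAA (PU.1) and TGTGGT (RUNX), or the reverse complement of these letters.
Elane (chr10:79886062-79886246, plus strand): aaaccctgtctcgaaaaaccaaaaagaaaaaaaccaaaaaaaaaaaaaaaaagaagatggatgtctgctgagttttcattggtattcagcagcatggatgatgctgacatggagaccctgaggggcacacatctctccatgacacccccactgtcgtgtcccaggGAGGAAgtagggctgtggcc
Ctsg (chr14:56102575-56102824, minus strand): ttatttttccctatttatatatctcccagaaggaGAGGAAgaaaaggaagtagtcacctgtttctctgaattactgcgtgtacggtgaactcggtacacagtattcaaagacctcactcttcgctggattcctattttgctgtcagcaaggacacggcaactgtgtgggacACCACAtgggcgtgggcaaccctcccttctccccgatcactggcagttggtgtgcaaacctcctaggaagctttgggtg
Ngp (chr9:110419558-110419746, plus strand): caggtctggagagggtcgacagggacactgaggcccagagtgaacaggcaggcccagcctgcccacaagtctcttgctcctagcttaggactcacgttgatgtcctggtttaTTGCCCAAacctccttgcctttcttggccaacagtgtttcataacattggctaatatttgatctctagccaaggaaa
Ltf (chr9:111019042-111019270, plus strand): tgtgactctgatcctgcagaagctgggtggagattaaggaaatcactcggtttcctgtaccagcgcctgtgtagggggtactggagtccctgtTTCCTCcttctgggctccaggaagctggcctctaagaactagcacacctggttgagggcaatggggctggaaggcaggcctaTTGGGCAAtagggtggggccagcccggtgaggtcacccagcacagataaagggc

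The motif letters were counted on both strands in the 250 bases before each RefSeq start. TTGCNNAA was in 3 of the 5 secondary genes (Ngp, Ltf and Lcn2) and in 0 of the 5 primary genes, and 9.56% of all 32851 windows of this length held it. Ngp had it at 2 positions, 138 and 11 bases before the start, and Ltf had it 75 bases before the start. These distances run to the RefSeq start, which can lie inside the annotated gene. The Ngp match at 11 is past the end of the printed stretch, within the annotated gene. The counted windows of Lcn2 and Prtn3 lie wholly within their annotated genes. GAGGAA was in 4 of the 5 primary genes (Mpo, Elane, Prtn3 and Ctsg) and in 3 of the 5 secondary genes (Ltf, Lcn2 and Cd177), and 23.3% of all windows held it. TGTGGT was found in Ctsg among the members and in 14.0% of windows, and TATAAA, read on the gene's strand only, was found in Cd177 and in 7.59% of windows. These are matches of letters, not binding sites, and with 5 genes a class no test was made. No 2 motifs shared bases in the printed stretches.

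Some members are neighbours in the genome (GRCm38). Prtn3 (chr10:79874476-79883174) and Elane (chr10:79886247-79888215), both protease genes on the plus strand, lay 3.1 kb apart with no coding gene between them. Camp (chr9:109847379-109849617), Ngp (chr9:110419747-110423012) and Ltf (chr9:111019271-111042767) lay within 1195 kb of chromosome 9, with 8 coding genes between Camp and Ngp and 20 between Ngp and Ltf. The others stood alone, Mpo on chromosome 11 (87793581 to 87804413), Ctsg on 14 (56099881 to 56102574), Ms4a3 on 19 (11629496 to 11640851), Lcn2 on 2 (32384633 to 32388252) and Cd177 on 7 (24743983 to 24760311). Prtn3 shared 159 of its 1732 exon bases with Plppr3 on the opposite strand, which held 125 to 204 counts, so its reads cannot be told apart from those of Plppr3 there if strand was not used in counting. Mpo overlapped only Gm11505, which held 0 counts in all 4 libraries.

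The classes stood far apart in level. The 5 primary genes together held 191 counts in Ctrl, 431 with TP5, 251 with sFD17 and 464 with FR17. The 5 secondary genes held 126106 counts in Ctrl (0.736% of all counts), 217974 with TP5 (1.27%), 146580 with sFD17 (0.943%) and 216978 with FR17 (1.10%). There were thus 660 secondary counts for each primary count in Ctrl, 506 with TP5, 584 with sFD17 and 468 with FR17. On a scale per kilobase of exon, Ngp was highest in Ctrl (2393 CPM per kb), followed by Camp (1043), Ltf (602), Lcn2 (482) and Cd177 (144), while the primary genes ran from Ms4a3 (0.503) through Mpo, Ctsg and Elane to Prtn3 (3.08). Transcripts of these 5 primary genes were therefore rare in every library, and their values carry wide counting intervals.

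**Figure D1:**
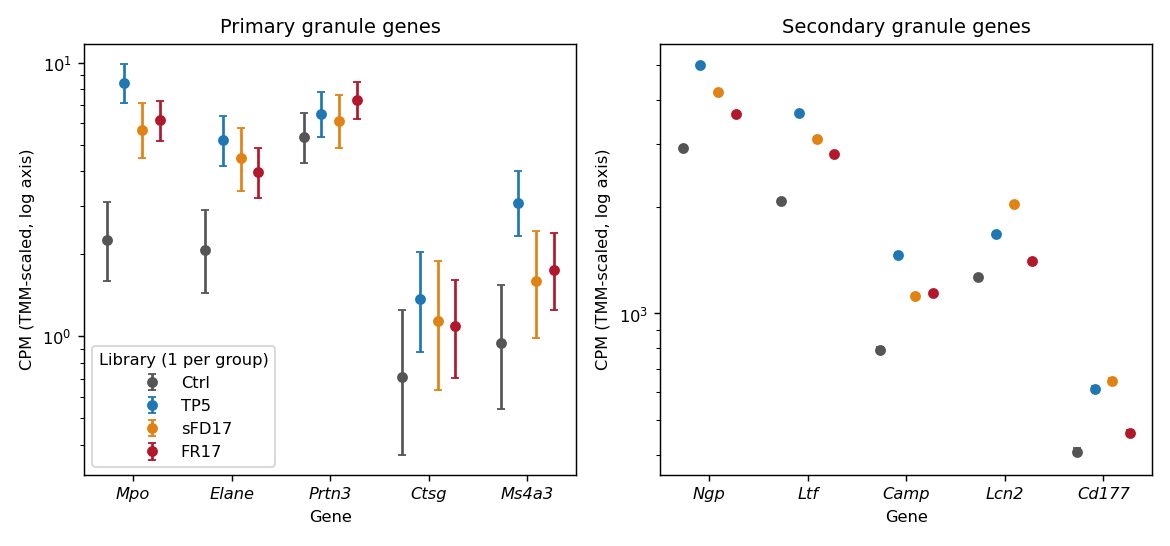
Level of each primary (left) and secondary (right) granule gene in CPM on a log axis, 1 point per library, with 95% counting intervals that are narrower than the points for secondary genes. The Ctrl point was the lowest of the 4 for all 10 genes under TMM scaling.

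All 10 genes were higher in each peptide library than in control under TMM scaling. Of all genes tested, 50.1% were higher in TP5, 48% in sFD17 and 52.3% in FR17. In log2 terms the primary genes had a median of 1.28 with TP5, 0.68 with sFD17 and 0.81 with FR17, and the secondary genes a median of 0.78, 0.58 and 0.31, while the medians over all genes tested were 0.00, -0.03 and 0.02. The primary median exceeded the secondary median by 0.50 with TP5, 0.10 with sFD17 and 0.49 with FR17. At least 2-fold higher than control were 3 members with TP5 (Mpo, Elane and Ms4a3), 2 with sFD17 (Mpo and Elane) and 1 with FR17 (Mpo), against 3.2%, 5.32% and 3.92% of all genes tested. All of these calls were primary genes, while relative to the neutrophil markers Camp in TP5 also passed 2-fold (1.02). No member was 2-fold lower in any of the 3, where 4.99%, 6.47% and 3.58% of genes were. Of the 8880 genes with a mean under 200 counts, as all primary genes are, 5.57%, 8% and 7.12% were 2-fold higher. Of the 7489 more abundant genes, as all secondary genes are, 0.374%, 2.15% and 0.12% were. With library size alone in place of TMM, the median over all genes tested was 0.05 in TP5, -0.23 for sFD17 and 0.26 for FR17, and the number of members 2-fold higher was 1 in sFD17 and 3 in FR17, against 3.54% and 6.67% of all genes.

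**Figure D2:**
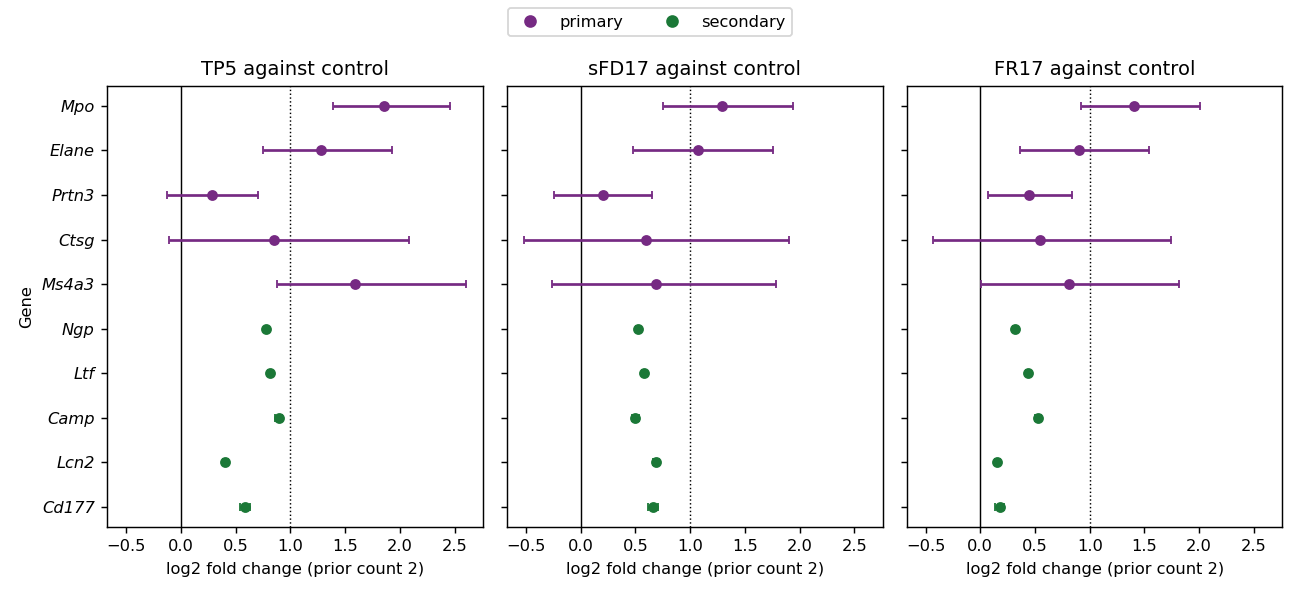
Log2 fold change of the 10 genes in each peptide library against control, with 95% counting intervals. The solid line is no difference and the dotted line 2-fold; all points lie right of the solid line, and those past the dotted line are primary genes.

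Mpo, which codes for the peroxidase that makes hypochlorous acid in the phagosome, moved most. It held 38 counts in Ctrl, 148 with TP5, 75 with sFD17 and 141 with FR17, or 2.25, 8.44, 5.68 and 6.14 CPM. The Ctrl interval (1.59 to 3.09 CPM) did not reach the interval of any peptide library. Against control the log2 fold change of Mpo was 1.86 with TP5 (1.38 to 2.46), 1.29 with sFD17 (0.76 to 1.94) and 1.40 with FR17 (0.92 to 2.01). Of all genes tested, 0.495% had a larger increase in TP5, 2.94% in sFD17 and 1.56% in FR17. In order of level, TP5 exceeded FR17 by a ratio of 1.37 (1.08 to 1.74), and FR17 and sFD17 did not differ beyond counting error. Both statements hold under TMM: with library size alone FR17 and TP5 were not told apart (-0.26, -0.61 to 0.079) and FR17 exceeded sFD17 (0.56, 0.16 to 1.00).

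Elane codes for neutrophil elastase, a serine protease of the same granules. It held 35 counts in Ctrl, 91 with TP5, 59 with sFD17 and 91 with FR17, or 2.07, 5.19, 4.47 and 3.96 CPM. Under TMM the intervals of the 3 peptide libraries overlapped each other, and all were above Ctrl. The log2 fold change was 1.28 with TP5 (0.75 to 1.93), 1.07 with sFD17 (0.48 to 1.76) and 0.90 with FR17 (0.36 to 1.54).

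Prtn3, proteinase 3, is the neighbour of Elane and had smaller differences. It held 90 counts in Ctrl, 114 with TP5, 81 with sFD17 and 167 with FR17, or 5.33, 6.50, 6.14 and 7.27 CPM. In order of level (FR17, TP5, sFD17, Ctrl), no neighbours differed beyond counting error. The log2 fold change was 0.28 with TP5 (-0.12 to 0.70), 0.20 with sFD17 (-0.25 to 0.65) and 0.44 with FR17 (0.07 to 0.84). Under TMM FR17 alone thus had an interval above 0, but relative to the neutrophil markers that of TP5 (0.41) also began just above 0. In sFD17 the log2 fold change of Prtn3 fell to -0.01 with library size alone. In each comparison with control it had the smallest log2 fold change of the 5 primary genes.

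Ctsg codes for cathepsin G, a serine protease also made by mast cells. It held 12 counts in Ctrl, 24 with TP5, 15 with sFD17 and 25 with FR17, or 0.710, 1.37, 1.14 and 1.09 CPM. Its log2 fold changes of 0.85, 0.60 and 0.55 all had intervals that include 0 under TMM, so no difference was detectable at this depth, and relative to the neutrophil markers those of TP5 and FR17 began just above 0 (0.016 and 0.019). The summed level of 10 basophil and mast cell markers was 18.0 CPM in Ctrl, 20.2 with TP5, 26.0 with sFD17 and 43.3 with FR17, with none of the 10 at 0 in all libraries. Of these 10 markers, 7 were at least 2-fold higher in FR17 than in Ctrl, against 3.92% of all genes tested and 7.12% of those under a mean of 200 counts, among them Prss34 (18 and 209 counts) and Mcpt8 (18 and 105 counts), both basophil proteases. Their part in the values of Ctsg was not tested.

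Ms4a3, a membrane protein of granulocyte and monocyte progenitors, held 16 counts in Ctrl, 54 with TP5, 21 with sFD17 and 40 with FR17, or 0.947, 3.08, 1.59 and 1.74 CPM. TP5 exceeded FR17, the next in level, by a ratio of 1.77 (1.15 to 2.73), and FR17, sFD17 and Ctrl did not differ from their neighbours in that order. The log2 fold change was 1.59 with TP5 (0.87 to 2.60), 0.68 with sFD17 (-0.26 to 1.78) and 0.81 with FR17 (0.01 to 1.82).

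The secondary genes had narrow counting intervals and none was 2-fold apart from control under TMM. Ngp, neutrophilic granule protein, a cathelicidin relative found in rodents, was at 2924 CPM in Ctrl, 5016 with TP5, 4202 with sFD17 and 3633 with FR17. Ltf, the iron-binding lactoferrin, was at 2078, 3659, 3107 and 2810 CPM in the same order of libraries. Both genes had the order TP5, sFD17, FR17, Ctrl, with every step beyond counting error. The log2 fold change of Ngp was 0.78 (0.76 to 0.80), 0.52 (0.50 to 0.54) and 0.31 (0.30 to 0.33) in TP5, sFD17 and FR17, and that of Ltf was 0.82 (0.80 to 0.84), 0.58 (0.56 to 0.60) and 0.44 (0.42 to 0.45). Under library size alone FR17 stood above sFD17 in both genes, so the place of these libraries in the order depends on the scaling.

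Camp, the cathelicidin antimicrobial peptide, was at 790 CPM in Ctrl, 1465 with TP5, 1117 with sFD17 and 1139 with FR17. Its log2 fold change of 0.89 in TP5 (0.86 to 0.92) was the highest of the secondary genes, and it was 0.50 in sFD17 (0.47 to 0.53) and 0.53 in FR17 (0.50 to 0.56). FR17 and sFD17 differed by less than counting error under TMM, with a ratio of 1.02 (0.999 to 1.04), but with library size alone FR17 was higher by 0.49 log2 (0.46 to 0.52).

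Lcn2, the siderophore-binding lipocalin, and Cd177, a surface and granule protein of neutrophils, had another order. Lcn2 was at 1264 CPM in Ctrl, 1674 with TP5, 2035 with sFD17 and 1408 with FR17. Cd177 was at 409, 612, 646 and 462 CPM. For both genes sFD17 was highest under TMM scaling, whereas TP5 was highest for Ngp, Ltf and Camp. With library size alone TP5 was highest for Cd177 too (0.63 against control, and 0.44 in sFD17), and relative to the neutrophil markers sFD17 was the lowest of the 3 peptide libraries for both genes. The log2 fold change of Lcn2 was 0.41 with TP5, 0.69 with sFD17 and 0.16 with FR17, and that of Cd177 was 0.58, 0.66 and 0.18.

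Lcn2 is also made by airway epithelium. The summed level of 11 airway and alveolar epithelial markers was 728 CPM in Ctrl, 1135 with TP5, 1512 with sFD17 and 870 with FR17, the same order of libraries as Lcn2, with none of the 11 at 0 in all libraries. In sFD17, 4 of the 11 were at least 2-fold higher than in Ctrl under TMM, against 5.32% of all genes tested, and 1 of the 11 with library size alone, and Scgb1a1, the club cell secretoglobin (565 and 1222 CPM in Ctrl and sFD17), made up most of the summed level. Lower in sFD17 were 3 of the 11, among them Epcam (-0.80) and Sftpc (-0.67). Their part in the values of Lcn2 was not tested.

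The 3 peptides were given at the same dose and for the same days, and the 3 pairs of peptide libraries do not share the control. Under TMM scaling no member was 2-fold apart in any pair. The background for at least 2-fold higher and lower was 11.3% and 10.8% for FR17 against sFD17, 7.04% and 2.88% for FR17 against TP5, and 6.74% and 5.64% for sFD17 against TP5. FR17 carries the TP5 sequence and sFD17 its scrambled form, and under TMM all 5 primary genes had intervals of the log2 difference that include 0 in this pair, as for Mpo (0.11, -0.30 to 0.54) and Ms4a3 (0.12, -0.67 to 0.97). Such intervals do not show that the 2 peptides act alike. With library size alone FR17 was above sFD17 beyond counting error in Mpo (0.56) and Prtn3 (0.69, 0.32 to 1.11), and relative to the neutrophil markers in Mpo (0.93), Elane (0.64), Prtn3 (1.06) and Ms4a3 (0.90). The median over all genes tested in this pair was then 0.52 and 0.88, so these differences moved with those of all genes. Of the secondary genes under TMM, Lcn2 (-0.53) and Cd177 (-0.48) were lower in FR17 than in sFD17, and Ngp (-0.21) and Ltf (-0.14) less so. Camp was at 0.03 (its interval includes 0). With library size alone Lcn2 was at -0.07 and Cd177 at -0.023 (its interval includes 0), and the secondary median of -0.21 became 0.25. Relative to the neutrophil markers Lcn2 (0.30) and Cd177 (0.35) were higher in FR17.

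Against free TP5, the FR17 library was lower in all 5 secondary genes, from -0.25 in Lcn2 to -0.47 in Ngp, though Lcn2 was at 0.073 relative to the neutrophil markers. It was also lower in Mpo (-0.45, -0.80 to -0.12) and Ms4a3 (-0.78, -1.45 to -0.20), and not distinguishable by counting error in Elane, Prtn3 and Ctsg. For Mpo the interval included 0 with library size alone (-0.26) and relative to the neutrophil markers (-0.13), for Ms4a3 on the latter scale (-0.48), and Prtn3 was higher in FR17 than in TP5 on both (0.35 and 0.48). The primary and secondary medians in this pair were both -0.38. The scrambled sFD17 library was lower than TP5 in Mpo (-0.56, -0.99 to -0.16), Ms4a3 (-0.90, -1.75 to -0.20), Ngp (-0.26), Ltf (-0.24) and Camp (-0.39), and higher in Lcn2 (0.28) and Cd177 (0.08). Cd177 turned to -0.19 with library size alone, and relative to the neutrophil markers Cd177 was at -0.43 and Lcn2 at -0.23. On that scale Elane (-0.71, -1.22 to -0.24) and Prtn3 (-0.58, -1.02 to -0.17) were also lower in sFD17 than in TP5 and Mpo was at -1.06 and Ms4a3 at -1.38, with a median of -0.53 over all genes tested.

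The balance of the classes within a library needs no scaling between libraries. For each 10000 secondary counts there were 15.1 primary counts in Ctrl (13.1 to 17.5), 19.8 with TP5 (17.9 to 21.7), 17.1 with sFD17 (15.1 to 19.4) and 21.4 with FR17 (19.5 to 23.4). The TP5 and FR17 intervals lay above that of Ctrl, and sFD17 overlapped Ctrl and TP5.

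Other genes of the granules, taken from fixed lists, had lower medians than the members. The 9 other primary granule genes tested had medians of 0.00, -0.32 and 0.26 log2 in TP5, sFD17 and FR17 against Ctrl, with 0 of 9 2-fold higher in any under TMM and 1 of 9 in FR17 with library size alone. Of those that reached 50 counts in either library, the 2 with the largest change in sFD17 were Ctsc, cathepsin C, which activates the granule proteases, at -1.13, and Lyz1, a lysozyme, at -0.89. Prss57, a granule serine protease below that count, held 26, 44, 39 and 47 counts in Ctrl, TP5, sFD17 and FR17 and was above control in all 3 (0.67, 0.89 and 0.39), and was named after its values were seen. Ctsc and Lyz1 are also expressed by macrophages, whose summed markers were lowest in sFD17. The part of macrophages in the values of Ctsc and Lyz1 was not tested. The 10 other secondary granule genes tested had medians of 0.10, 0.35 and -0.01. Among them Cebpe, the transcription factor of secondary granule genes, held 467, 866, 681 and 788 counts in Ctrl, TP5, sFD17 and FR17, with log2 fold changes of 0.83, 0.90 and 0.31, and Olfm4, olfactomedin 4, was 0.69 higher in TP5. Chil3, a chitinase-like protein also on the macrophage list, was at -1.48 in sFD17 and 0.54 in FR17.

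Of the 7 tertiary granule genes, medians were 0.08, 0.47 and -0.27. Fcnb, ficolin B, a lectin made early in granulocyte development, held 156, 510, 296 and 388 counts in Ctrl, TP5, sFD17 and FR17. It thus had the control library lowest, as the members did, with log2 fold changes of 1.64, 1.27 and 0.86. Adam8, a metalloprotease, was at -0.87 in FR17, and Mmp25, a membrane-bound matrix metalloproteinase, at 0.95 in sFD17.

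The 11 transcription factors of granulopoiesis had medians of -0.01, 0.02 and 0.03, with 0 of 11 past 2-fold in any comparison with control under TMM. With library size alone 1 of 11 was 2-fold lower in sFD17, against 9.37% of all genes. Myb, a regulator of progenitors, was 0.53 higher in TP5, Cebpa was at -0.95 in sFD17, Irf8, which favours the monocyte lineage, at 0.55 in FR17, and Cebpb, active in emergency granulopoiesis, at -0.60 in FR17. The 7 progenitor markers tested had medians of 0.16, 0.27 and 0.43, with 5, 5 and 7 above control. In TP5 they were mixed, with Flt3 at 1.28, Cd34 at -0.65 and Meis1 at -0.81, and Hoxa9 was at 0 in every library. Proliferation genes were above control in 15 of 15 in TP5 (median 0.60, 2 of them 2-fold under TMM, against 3.2% of all genes), 10 of 15 in sFD17 (0.22) and 13 of 15 in FR17 (0.46). Cdc20, an activator of the anaphase-promoting complex, held 107, 244, 117 and 281 counts in Ctrl, TP5, sFD17 and FR17. The part of proliferating or progenitor cells in the values of the primary genes was not tested.

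Genes of secretory vesicles and late neutrophils lay mostly below control in TP5 and FR17, where the members lay above it. Of 10, 1 was above control with TP5, 9 with sFD17 and 0 with FR17, with medians of -0.30, 0.41 and -0.63. Csf3r, the receptor for G-CSF, was at -0.47, 0.26 and -1.04, and Cxcr2, the receptor that draws neutrophils to CXC chemokines, at -0.46, 0.33 and -0.88. The 12 neutrophil markers, some of which are on this list, had medians of -0.09, 0.35 and -0.66. Relative to the neutrophil markers the late medians were smaller, at -0.17, 0.023 and -0.18, with 2, 5 and 3 of 10 above control. Of all genes tested, 64.3%, 21.6% and 83.1% were above control on that scale, with medians of 0.13, -0.40 and 0.46. The late medians and the sign changes given below thus hold a shift shared by all genes. On the same scale the proliferation median in sFD17 went to -0.16 and the progenitor median in sFD17 to -0.087. The neutrophil marker medians in TP5 and sFD17 went to 0.039 and -0.035. The summed counts of these markers set that scale, so their medians are drawn toward no difference by construction. Late genes that are also among these markers are drawn the same way. The medians also changed sign there for the transcription factors in TP5 (0.12) and sFD17 (-0.36), the other primary genes in TP5 (0.12), the other secondary genes in sFD17 (-0.032) and FR17 (0.44), and the tertiary genes in FR17 (0.18). With library size alone the medians changed sign for the transcription factors in TP5 (0.043) and sFD17 (-0.20), the other primary genes in TP5 (0.049) and the other secondary genes in FR17 (0.24). Alpl, alkaline phosphatase, which stands apart from the others at -2.05 in TP5 and also low in sFD17, held only 18, 3, 4 and 16 counts and was named after its values were seen.

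**Figure D3:**
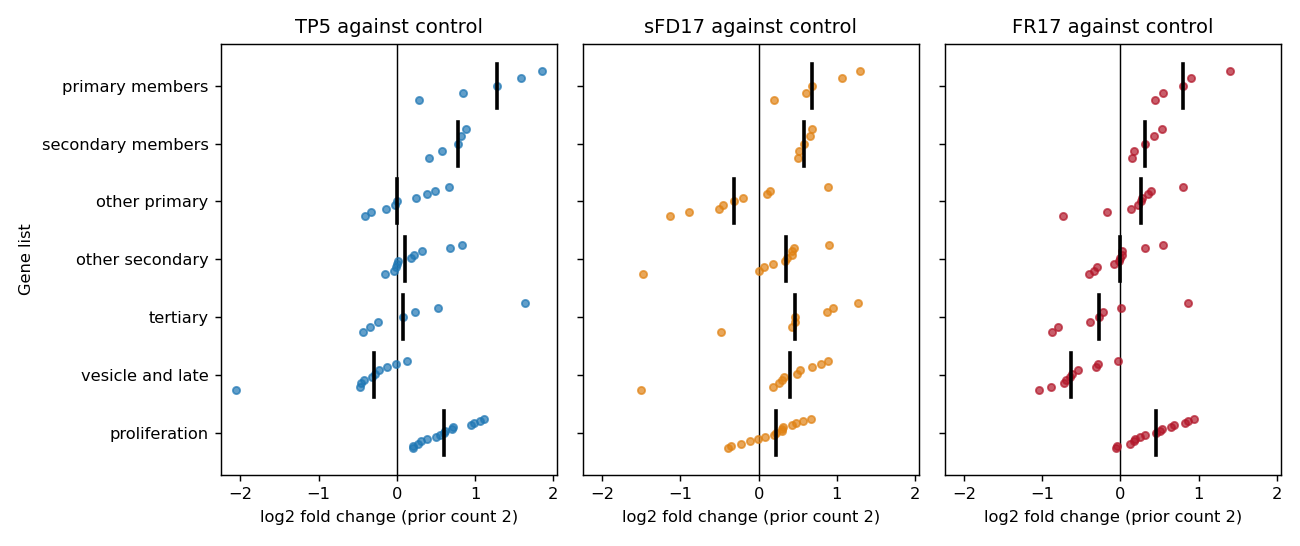
Log2 fold change against control of each gene (points) of 7 lists, with the list's median as a bar. Primary and secondary members lie right of 0 in all 3 panels, while vesicle and late genes lie mostly left of 0 in TP5 and FR17 and right of 0 in sFD17.

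Set against these late genes within each library, where no scaling enters, the TP5 and FR17 libraries stood apart from sFD17 and Ctrl. There were 35.2 secondary counts per 100 counts on late genes in Ctrl, 71.4 with TP5, 37.8 with sFD17 and 71.9 with FR17. This is 2.03, 1.07 and 2.04 times the control. The primary genes gave 534 counts per 1000000 counts on late genes in Ctrl, 1413 with TP5, 647 with sFD17 and 1537 with FR17, or 2.65, 1.21 and 2.88 times the control. Against the 12 neutrophil markers the secondary genes stood at 20.6 counts per 100 in Ctrl, 37.5 with TP5, 23.5 with sFD17 and 35.7 with FR17. The primary genes stood at 312 per 1000000 in Ctrl, 741 with TP5, 403 with sFD17 and 763 with FR17. These ratios were chosen after the data were seen, they mix a difference in the members with a difference in the late genes, and Il1b, Csf3r and Cd14 make up most of the late counts.

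**Figure D4:**
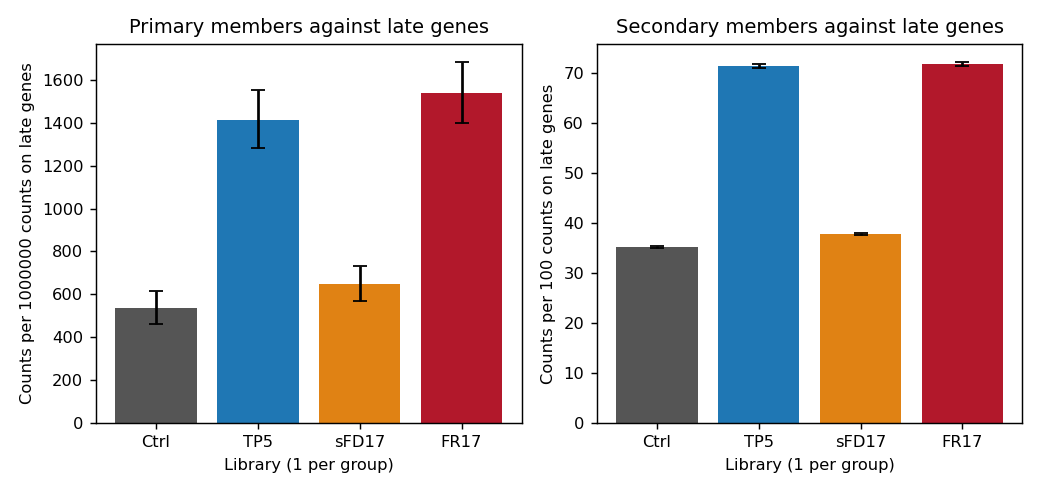
Counts on the 5 primary members per 1000000 counts on 10 late genes (left) and on the 5 secondary members per 100 such counts (right), 1 bar per library with 95% counting intervals. The TP5 and FR17 bars lie at 1413 and 1537 on the left and at 71.4 and 71.9 on the right, and sFD17 lies near Ctrl.

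The levels of the members moved with what the counts were set against, as those of all genes did. Relative to the neutrophil markers the secondary median was 0.91 with TP5, 0.20 with sFD17 and 0.76 with FR17. Under TMM scaling sFD17 was above FR17 instead. This exchange was shared by all genes tested, whose medians on the neutrophil marker scale were 0.13, -0.40 and 0.46. Measured from the median of all genes, the secondary median was 0.78, 0.59 and 0.30 on that scale and 0.78, 0.61 and 0.29 under TMM, and the primary median was 1.27, 0.72 and 0.77 against 1.28, 0.71 and 0.78. Scaling moves all genes of a library alike, apart from the prior count, so this likeness was fixed in advance. The direction against control was kept by all 10 members in TP5 and FR17 under all 7 other settings of scaling, filter and prior count, and in sFD17 by 9 of 10 under library size alone, library size without the 10 most abundant genes and the neutrophil marker scaling, the exception being Prtn3. In FR17, 71.6% of all genes tested were above control with library size alone and 83.1% relative to the neutrophil markers, so 10 of 10 there says little about the members, whereas in sFD17 the shares were 31.9% and 21.6%.

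**Figure D5:**
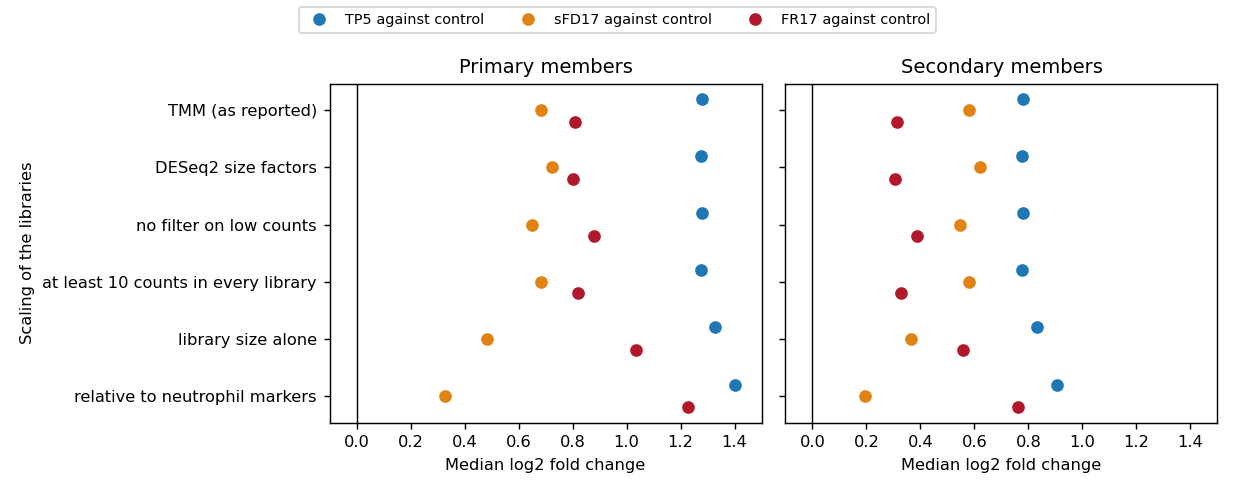
Median log2 fold change against control of the 5 primary (left) and 5 secondary (right) members under 6 choices of scaling or filter. TP5 was highest under all 6, while sFD17 and FR17 changed places among the secondary members, as the medians of all genes did with the scaling.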

How the data were processed

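RNA of sorted lung CD11b+Ly6g+ cells was sequenced as 1 library per group. The authors deposited raw counts per gene with gene symbols, positions and lengths. Per the submitters' processing notes the tools were HISAT2 2.0.5, StringTie 1.3.3b, featureCounts 1.5.0-p3 and edgeR 3.18.1 with build GRCm38.p6. The library kit was directional, and whether counting used strand is not given in the sources used here.

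Counts were scaled by TMM (edgeR 4.0.16, R 4.3.3). Genes that reached 10 counts in 1 or more libraries were kept (16369 of 54532), and log2 fold changes used a prior count of 2. With 1 library per group no test of a condition was possible, and a gene was called at 2-fold. Intervals are exact 95%, Poisson for a level and conditional binomial for a ratio. Those of ratios were tried on simulated Poisson counts, the model they assume. The simulation had no variation between libraries, so it is no check of the intervals on real libraries. Totals were 17132880 (Ctrl), 17165184 (TP5), 15543071 (sFD17) and 19638228 (FR17) counts.

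The members and the fixed gene lists were chosen with earlier results of these data known. Named beside the members were, of each list the text describes gene by gene, genes among the 2 with the largest change per comparison with control (at least 50 counts in 1 of the 2 libraries), defining markers, and the 5 genes nearest each class in profile. Alternatives were DESeq2 1.42.0 size factors, library size alone or without the 10 most abundant genes, other filters, prior count 0.5, fold 1.5, edgeR's exact test (its dispersion over the 4 libraries as 1 group, so it describes libraries only), the interval wholly past 2-fold, and classes without their most abundant member.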

Additional observations from a re-analysis of the deposited data

How the results depend on the processing

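Of the 10 members, all were above control in TP5 and FR17 under every scaling, filter and prior count tried. In FR17, 71.6% of all genes were above control with library size alone and 83.1% relative to the neutrophil markers. The count in FR17 thus says little there. Other results moved, mostly with the scaling, because the TMM factors of sFD17 and FR17 differ. With library size alone, 3 members were 2-fold higher in FR17 and 1 in sFD17 against control, and 1 was 2-fold lower in sFD17 than in TP5, against 6.67%, 3.54% and 10.1% of all genes; library size without the 10 most abundant genes gave the same counts of 3, 1 and 1. Relative to the neutrophil markers (chosen after the data were seen) the counts were 4 in TP5 (among them Camp), 3 in FR17, 0 in sFD17, 1 higher in FR17 than in sFD17 and 2 lower in sFD17 than in TP5, against 4.28%, 11.7%, 2.55%, 43.4% and 18.8% of all genes. At 1.5-fold the counts were 7 with TP5, 6 with sFD17 and 3 with FR17, and 1 member was lower in FR17 and 1 in sFD17 than in TP5, against 8.98%, 13.4%, 11%, 10.1% and 16.4% of all genes. With the interval wholly past 2-fold they were 1, 0 and 0. The share of all genes that pass this rule was not computed, so these counts have no background. Calls were also made by edgeR's exact test, with a dispersion taken over the 4 libraries as 1 group for want of replicates, and are not given. They describe these libraries and are no test of the conditions.

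The secondary median in TP5, sFD17 and FR17 against control was 0.83, 0.36 and 0.56 with library size alone, 0.83, 0.36 and 0.56 without the 10 most abundant genes, and 0.91, 0.20 and 0.76 relative to neutrophil markers. For FR17 against sFD17 it reversed to 0.25, 0.25 and 0.62 in these 3 settings, for FR17 against TP5 it was -0.19, -0.19 and -0.058, and for sFD17 against TP5 -0.50, -0.50 and -0.75. The primary median against control was 1.33, 0.48 and 1.04 with library size alone and 1.40, 0.33 and 1.23 relative to neutrophil markers. For FR17 against TP5 it was -0.19 and -0.064, for FR17 against sFD17 0.55 and 0.90, and for sFD17 against TP5 -0.49 and -0.71. Measured from the median of all genes, these medians moved by little, from 0.71 to 0.72 for the primary and 0.61 to 0.59 for the secondary genes in sFD17 between TMM and the neutrophil markers. A change of scaling moves all genes of a library alike, apart from the prior count. The small move was therefore fixed in advance. With DESeq2 size factors the secondary median was 0.62 in sFD17 against control, -0.26 in FR17 against sFD17 and -0.19 in sFD17 against TP5. With no filter it was 0.55 in sFD17 and 0.39 in FR17 against control, -0.10 in FR17 against sFD17, -0.31 in FR17 and -0.27 in sFD17 against TP5. With at least 10 counts in every library it was -0.36 in FR17 against TP5. Without Ngp it was 0.70 in TP5 and 0.62 in sFD17 against control, -0.31 in FR17 against sFD17 and -0.079 in sFD17 against TP5.

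FR17 against sFD17 reversed for Ngp (0.25, 0.25 and 0.62) and Ltf (0.32, 0.32 and 0.69) under library size alone, library size without the 10 most abundant genes and neutrophil markers, and for Lcn2 (0.30) and Cd177 (0.35) under the last. Camp, at 0.03 under TMM in this pair, was at 0.49, 0.49 and 0.86. Against TP5, Cd177 in sFD17 reversed (-0.19, -0.19 and -0.43), as did Lcn2 in sFD17 (-0.23) and in FR17 (0.073) relative to neutrophil markers. Without its most abundant member, the share of counts was 0.00059%, 0.00185%, 0.00109% and 0.00151% for primary genes and 0.448%, 0.757%, 0.586% and 0.680% for secondary genes in Ctrl, TP5, sFD17 and FR17. Leaving the 10 most abundant genes out of the total, the secondary share was 0.790%, 1.36%, 1.01% and 1.18%. No cause was tested. With 1 library per group no replicate could be left out, and the low counts of the primary genes limit their folds.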

Other observations

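The genes whose levels over the 4 libraries lay nearest the mean profile of each class, among 9794 genes with at least 50 counts in every library, are given as a description. For the primary class these were Nusap1, a spindle protein, at a root mean square distance of 0.053 log2 units, Itgae, an integrin subunit (0.062), Cyp11a1 (0.064), Foxm1, a transcription factor of the cell cycle (0.068), and Ddr1, a collagen receptor (0.085). Nusap1 held 69 counts in Ctrl, 177 with TP5, 91 with sFD17 and 173 with FR17. For the secondary class they were F730016J06Rik (0.028), Sytl1 (0.030), Sept6 (0.033), Nsl1 (0.041) and I830127L07Rik (0.042), of which I830127L07Rik held 1328, 2371, 1678 and 2414 counts. With 4 libraries such likeness has little weight.

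Outside the granule lists, Prg2, the eosinophil major basic protein, held 19 counts in Ctrl, 72 with TP5, 32 with sFD17 and 158 with FR17. The summed level of the 7 eosinophil markers was 58.5, 48.2, 38.1 and 68.0 CPM, most of it Siglecf, which is also on the macrophage list. In TP5, where this sum was below that of Ctrl, 5 of the 6 markers tested were above Ctrl (median 0.65). The summed level of the 8 NK cell markers was 32.6, 20.6, 26.1 and 104 CPM.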
